A study of Mus musculus with 11 samples.

Results

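Glycolysis splits glucose into pyruvate in the cytosol, the pentose phosphate pathway branches from its first steps to supply NADPH and ribose, and lactate dehydrogenase or pyruvate dehydrogenase decides where pyruvate goes next. T cells are known to raise the enzymes of glycolysis when they are activated, partly under the hypoxia factor Hif1a and under Myc. Regulatory T cells, which depend on the transcription factor Foxp3, are generally described as leaning more on mitochondrial oxidation than effector T cells do. The 36 genes described here cover glucose transporters, the enzymes of both pathways, lactate and pyruvate handling, and the hypoxia sensors that act on them. They were chosen by name, with earlier results of these data known. Each was read from its brightest probe set with a single gene symbol. Of the 36, 32 could be read in this way, out of 18193 genes in all. Gapdh had only probe sets shared with other genes besides the array's own controls, and the gene table at hand listed no probe set for Gpi1, Eno1 or G6pdx.

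RNA of sorted CD4 T cells from spleen and lymph node of mice 6 to 8 weeks old was measured on 11 Affymetrix arrays. The TN group (n = 3) held naive T cells without Foxp3. The Treg group (n = 5) held Foxp3-positive T cells. The GFPKO group (n = 3) held GFP-positive T cells from Foxp3GFPKO/WT mice, which carry a Foxp3 knockout allele marked by GFP beside a wild-type allele, so that these hosts also have cells using the wild-type allele. All cells were taken by CD4 positive selection and sorted on GFP, and the labels used here give no strain, sex, pooling or reporter allele for TN and Treg. The series asks whether Foxp3 uses enhancers that exist before it is made, and here the 3 groups were compared in pairs for their sugar metabolism genes. Nothing in the labels ties the arrays of a group to separate animals, and the p-values therefore reflect only the spread between these samples, which could be technical.

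Values are log2 expression values, on which 1 unit is a doubling, and they can be compared between arrays for the same gene but not between genes. The label check was mixed. Of 11 measured Treg markers 10 were higher in Treg than in TN, but the Foxp3 probe set read 3.47 ± 0.16 (SD, n = 5) in Treg, hardly different from the 3.48 ± 0.45 (n = 3) of TN, while GFPKO reached 6.93 ± 0.23 (n = 3). This low reading does not match the label, and "Treg" stands below for the arrays labelled Treg. Where the probe set lies relative to the altered part of the alleles was not known. Background was set at 3.99, which was the top Foxp3 reading among TN arrays. Xist was high and Y-linked genes were at background in GFPKO only, so sex and genotype cannot be told apart in comparisons with GFPKO. The 7 measured T cell marker genes, Cd3e, Cd3d and Cd3g among them, were above background on average in every group. Against TN, 1 of the 7 was higher and 1 lower in Treg, and 1 was lower in GFPKO. The difference between the 3′ and 5′ signals of the actin control, a measure of RNA integrity, was 0.77 and 0.83 in GFPKO replicates 1 and 2, against 0.38 to 0.61 in the other arrays. Centring each array on its median gene, an alternative scaling, lowered every Treg minus TN difference by 0.14 and every Treg minus GFPKO difference by 0.17, and calls of the genes named below that depended on this are given with them.

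Of the 32 genes, 12 differed in at least 1 of the 3 comparisons at an adjusted p under 0.05 in limma (Benjamini-Hochberg, over all 18193 genes), and 20 differed in none. Against TN, Treg had 8 higher and 2 lower genes (31.2% of the 32), where 9.97% of all genes were called, 6.54% higher and 3.42% lower. The share of all genes includes many dim ones. With only the 9141 genes with a mean of at least 5 kept, 16.5% were called, and the counts of 8 and 2 stayed the same. GFPKO had 3 higher and 2 lower genes (15.6%) against TN, where 5.66% of all genes were called, 2.64% higher and 3.02% lower. Among the brighter genes alone 10.4% were called, with the counts of 3 and 2 unchanged. Against GFPKO, Treg had 8 higher genes and none lower in limma (25% of the 32), where 9.43% of all genes were called in either direction and 6.88% were called higher. Among the brighter genes alone 17.2% were called in either direction, with the count of 8 unchanged. The count of 8 became 5 after centring, 2 with the actin difference as a covariate, 4 without GFPKO replicate 1 and 5 without Treg replicate 4. These were 15.6%, 6.25%, 12.5% and 15.6% of the 32, against 8.65%, 4.46%, 6.23% and 7% of all genes in the same settings. Centring also turned the share of all calls that were higher from 73% to 42.9% for Treg minus GFPKO and from 65.6% to 43.5% for Treg minus TN. With limma's array weights, 10 of the 32 were called for Treg minus GFPKO (31.2%), below the 37.1% of all genes called in that setting. At an unadjusted p under 0.05 in limma, 11 of the 32 were higher and 0 lower for Treg minus GFPKO (16.7% and 6.54% of all genes), 11 higher and 4 lower for Treg minus TN (11.9% and 8.03%), and 5 higher and 5 lower for GFPKO minus TN (6.01% and 10.6%). The median log2 difference over the 32 genes was 0.23 for Treg minus TN (0.03 over all genes), -0.04 for GFPKO minus TN (-0.04 over all genes) and 0.22 for Treg minus GFPKO (0.08 over all genes). The comparisons share groups, so their counts are not independent of each other.

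**Figure D1:**
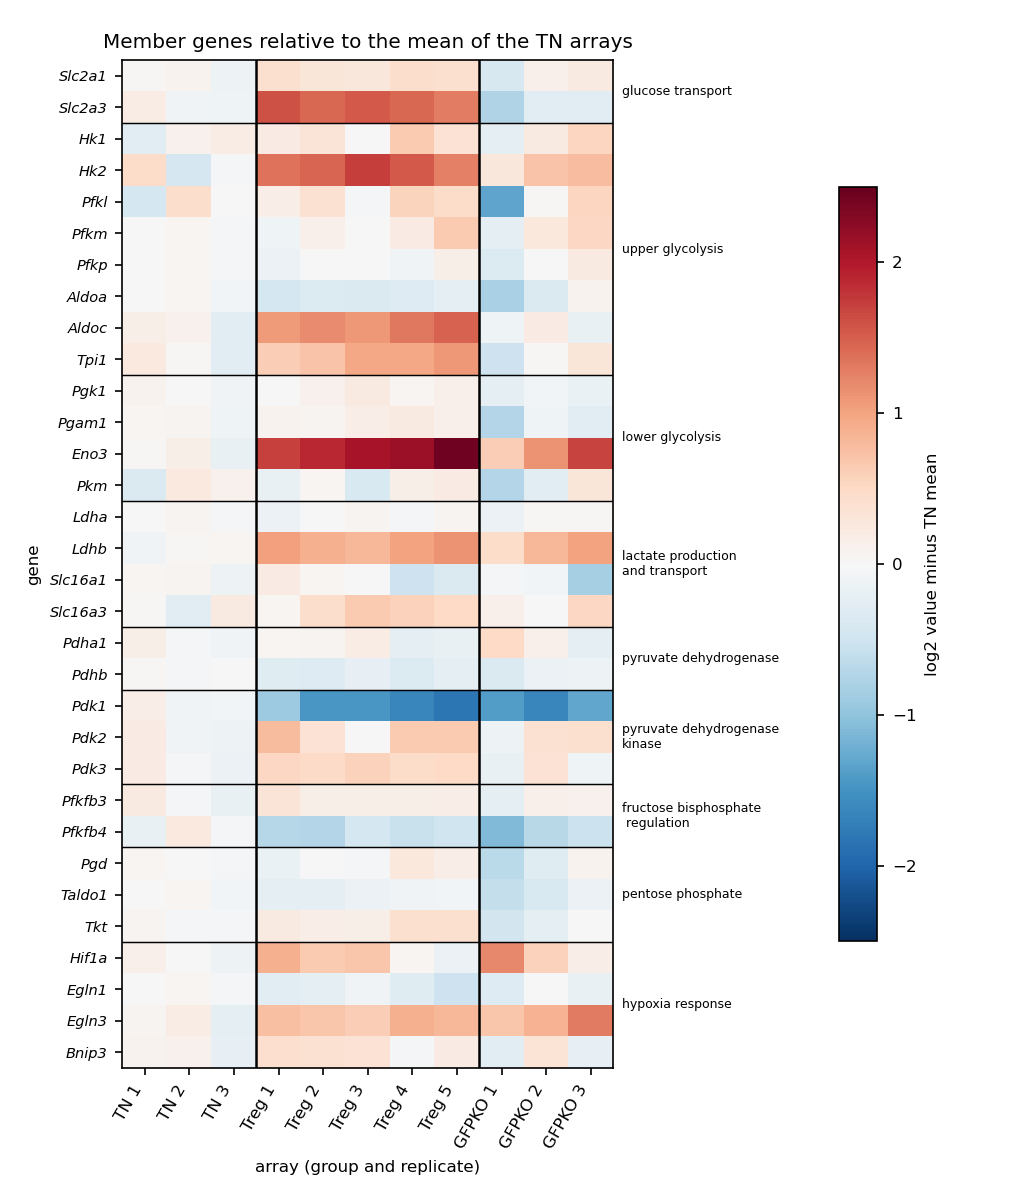
Log2 value minus the mean of the TN arrays for the 32 genes (rows, grouped by role) on the 11 arrays (columns), red for higher and blue for lower. Eno3, Slc2a3, Hk2 and Aldoc are red across the 5 Treg arrays and Pdk1 is blue across the Treg and GFPKO arrays, while GFPKO replicate 1 is paler or bluer than the other GFPKO arrays for many genes.

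The upstream sequences of 3 of these genes are shown because they stand for the largest rise (Eno3), the glucose-trapping step (Hk2) and the largest fall (Pdk1) against TN. They come from RefSeq on build GRCm38.p6, run 5′ to 3′ from 250 bases before to 50 bases after an annotated start, and were found for 31 of the 32 genes. Capitals mark the core of the hypoxia response element, ACGTG or GCGTG, read on both strands. Eno3 lies at chr11:70656926-70657225 on the plus strand, Hk2 at chr6:82774405-82774704 on the minus strand and Pdk1 at chr2:71872974-71873273 on the plus strand.
Eno3: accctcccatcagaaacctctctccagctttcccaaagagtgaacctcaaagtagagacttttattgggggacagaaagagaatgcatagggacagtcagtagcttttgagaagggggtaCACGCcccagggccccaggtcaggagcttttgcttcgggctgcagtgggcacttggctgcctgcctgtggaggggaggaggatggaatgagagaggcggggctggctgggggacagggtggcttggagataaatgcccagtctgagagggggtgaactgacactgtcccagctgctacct
Hk2: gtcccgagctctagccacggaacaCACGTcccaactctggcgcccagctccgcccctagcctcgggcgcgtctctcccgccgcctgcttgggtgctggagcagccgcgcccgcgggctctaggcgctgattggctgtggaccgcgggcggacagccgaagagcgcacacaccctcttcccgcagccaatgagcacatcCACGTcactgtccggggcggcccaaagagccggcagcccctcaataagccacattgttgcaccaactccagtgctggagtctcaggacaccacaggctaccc
Pdk1: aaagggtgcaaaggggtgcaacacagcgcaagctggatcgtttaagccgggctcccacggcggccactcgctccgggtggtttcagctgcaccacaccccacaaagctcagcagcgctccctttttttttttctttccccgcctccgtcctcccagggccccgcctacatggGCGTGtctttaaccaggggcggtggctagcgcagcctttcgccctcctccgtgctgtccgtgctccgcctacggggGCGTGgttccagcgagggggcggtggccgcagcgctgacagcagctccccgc
The Eno3 window held 1 match, the Hk2 window 2 and the Pdk1 window 2, and a further annotated start of Pdk1 held 0. ACGTG or GCGTG occurred in the windows of 30 of 31 genes (96.8%), against 46.7% of 27025 genes with a window and 69.4% of 7447 other genes measured here with a mean of at least 5. ACGTG alone occurred in 64.5% of the 31 genes, against 21.8% and 30.4%. The 31 genes had 1.42 windows per gene, the other measured genes 1.27 and all genes 1.22. The median window held 20.5 CG pairs, 21.0 in the other measured genes and 7.0 over all genes. The E-box CACGTG, which contains ACGTG on both strands, occurred in 22.6% of the 31 genes, 8.09% of all genes and 12.5% of the other measured genes. The forkhead motif TGTTTAC occurred on either strand in 1 of the 31, Aldoc, or 3.23%, against 4.05% of all genes. Of 11 genes called in at least 1 comparison and having a window, 10 held a hypoxia core. Tpi1 was the exception. Called genes made up 11 of the 31 with a window, 10 of the 30 with either core and 5 of the 20 with ACGTG. None of the 7 with the E-box was called. Both called and uncalled genes thus carried these letters, and a match is a description of sequence and not evidence of binding.

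Glucose enters T cells mainly through the transporters Slc2a1 (GLUT1) and Slc2a3 (GLUT3), and these behaved differently. Slc2a3 read 9.63, 9.35 and 9.33 in TN, 11.04, 10.88, 10.96, 10.87 and 10.71 in Treg, and 8.68, 9.14 and 9.17 in GFPKO. Every Treg array lay above every array of the other groups. The log2 difference was 1.46 ± 0.14 (SE) for Treg minus TN, or 2.74-fold (limma adjusted p = 2.7e-06), and 1.89 ± 0.14 for Treg minus GFPKO, or 3.71-fold (adjusted p = 6e-07). Between GFPKO and TN the difference was -0.44 ± 0.16 (adjusted p = 0.14) and was called only with array weights (-0.31). Averaging all 4 Slc2a3 probe sets, of which 2 lay at background, gave 0.82 for Treg minus TN and 1.15 for Treg minus GFPKO, both called. Slc2a1 averaged 9.11 ± 0.07 over the 5 Treg arrays (mean ± SD), against 8.74 ± 0.11 in TN and 8.73 ± 0.33 in GFPKO, with 3 arrays each. Its Treg arrays lay above all others as well, but the differences of 0.37 ± 0.14 and 0.39 ± 0.14 were not called. Slc2a1 was called for Treg minus TN without GFPKO replicate 1 (0.37), in a fit of those groups alone (0.37) and with array weights (0.32), and for Treg minus GFPKO without GFPKO replicate 3 (0.50) and with array weights (0.24). In bulk RNA, fewer cells with a transcript and less of it per cell cannot be told apart.

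The next steps trap glucose and cut the hexose into trioses. Hk2, the inducible hexokinase, read 4.83, 3.94 and 4.31 in TN, 5.72, 5.82, 6.09, 5.89 and 5.63 in Treg, and 4.65, 5.07 and 5.14 in GFPKO. The Treg arrays were the highest, and GFPKO overlapped with TN. TN replicate 2 (3.94) lay just below the background level of 3.99, and the Hk2 level rests on a single probe set. Treg minus TN came to 1.47 ± 0.18, or 2.77-fold (limma adjusted p = 4.3e-05), and 0.88 ± 0.18 for Treg minus GFPKO (adjusted p = 0.0066). The second of these was 0.69 and not called with the actin difference as a covariate. GFPKO minus TN was 0.59 ± 0.20 and not called, but was called without TN replicate 1 (0.82) and with array weights (0.75). The constitutive hexokinase Hk1 was called in no comparison, with Treg above TN by 0.31 ± 0.18, GFPKO above TN by 0.18 ± 0.20 and Treg above GFPKO by 0.13 ± 0.18 log2 units (SE).

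The phosphofructokinase genes Pfkl, Pfkm and Pfkp, which encode the committed step of glycolysis, were called in no comparison. The Pfkp means lay at 9.36, 9.33 and 9.33 in TN, Treg and GFPKO. Pfkl had the widest GFPKO spread of the 32 genes, with 5.43, 6.78 and 7.28 in its 3 arrays, and was called higher in Treg than in GFPKO (0.95) without GFPKO replicate 3.

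Aldolase splits the hexose, and its isoforms also differed. Aldoc, the isoform best known from brain, read 5.80, 5.76 and 5.38 in TN, 6.71, 6.83, 6.74, 6.96 and 7.13 in Treg, and 5.53, 5.85 and 5.45 in GFPKO. All 5 Treg arrays lay above the rest, and GFPKO lay within or next to the TN range. On the log2 scale Treg exceeded TN by 1.23 ± 0.14 (limma adjusted p = 2.5e-05) and GFPKO by 1.26 ± 0.14 (adjusted p = 4.7e-05), with -0.03 ± 0.16 for GFPKO minus TN. Another Aldoc probe set was at background, with a mean of 2.55, and was not called. Averaging the Aldoc probe sets gave 0.65 for Treg minus TN and 0.73 for Treg minus GFPKO, both still called. Aldoa, the common isoform, read 11.29 ± 0.06 in TN, 10.96 ± 0.08 in Treg and 10.94 ± 0.45 in GFPKO. Its Treg minus TN difference of -0.34 ± 0.16 was not called (limma adjusted p = 0.26), but was called after centring (-0.48), in a fit of those groups alone (-0.34) and with array weights (-0.36). GFPKO minus TN was called without GFPKO replicate 3 (-0.58) and with array weights (-0.37).

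Tpi1, the enzyme that interconverts the trioses, read 8.93, 8.70 and 8.40 in TN, 9.28, 9.39, 9.64, 9.64 and 9.75 in Treg, and 8.16, 8.70 and 8.98 in GFPKO. Treg was again above every other array. It exceeded TN by 0.87 ± 0.18 log2 units (limma adjusted p = 0.0048) and GFPKO by 0.93 ± 0.18 (adjusted p = 0.0045), and the other Tpi1 probe sets gave 0.92 and 0.89 for Treg minus TN. With the actin covariate the second difference was 0.68 and not called.

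**Figure D2:**
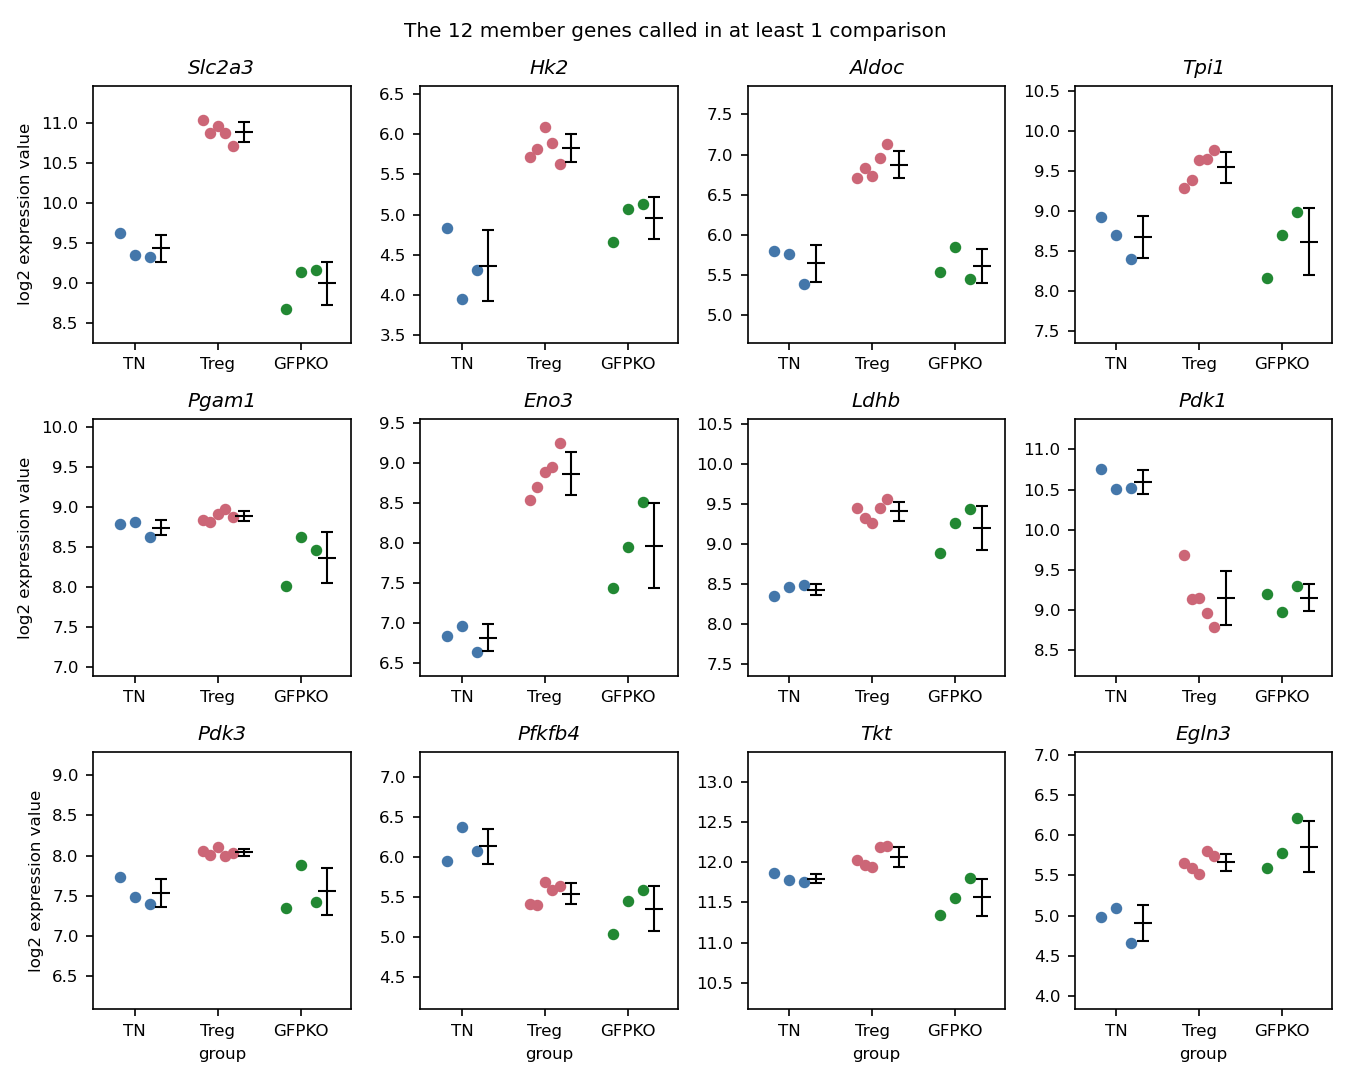
Log2 expression values of the 12 genes called in at least 1 comparison, by group, with 1 point per array and a bar for the mean ± SD. The vertical axes span the same number of log2 units but start at different levels, since levels of different genes cannot be compared. Slc2a3, Hk2, Aldoc and Tpi1 are highest in Treg, while Ldhb, Egln3, Pdk1 and Pfkfb4 in GFPKO lie near Treg.

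Lower glycolysis turns trioses into pyruvate, and here a muscle isoform stood out. Eno3, the enolase typical of muscle, read 6.85, 6.97 and 6.65 in TN, 8.54, 8.70, 8.89, 8.95 and 9.25 in Treg, and 7.44, 7.95 and 8.51 in GFPKO. The 3 groups did not overlap, and GFPKO lay between TN and Treg. Its log2 difference was 2.04 ± 0.21 for Treg minus TN, or 4.12-fold (limma adjusted p = 5.2e-06), the largest increase of the 32 genes. It was 1.15 ± 0.23 for GFPKO minus TN, or 2.22-fold (adjusted p = 0.0066), and 0.89 ± 0.21 for Treg minus GFPKO (adjusted p = 0.013). The last of these was not called without GFPKO replicate 1 (0.63), without GFPKO replicate 2 (0.89) or with the actin covariate (0.60). The Eno3 level rests on a single probe set, as do those of Pgam1, Pdk3 and Pfkfb4 below.

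Pgam1, a mutase of lower glycolysis, averaged 8.88 ± 0.06 in Treg (SD, n = 5), against 8.74 ± 0.10 in TN and 8.37 ± 0.32 in GFPKO (n = 3 each), and was called only for Treg minus GFPKO (0.52 ± 0.13, limma adjusted p = 0.025). Its arrays read 8.79, 8.81 and 8.63 in TN, 8.83, 8.81, 8.91, 8.97 and 8.87 in Treg, and 8.01, 8.63 and 8.46 in GFPKO. The Treg arrays lay narrowly above TN and clear of GFPKO. Array weights gave 0.28, still called. The call was lost after centring (0.35), with the actin covariate (0.49), in a fit of Treg and GFPKO alone (0.52), and without GFPKO replicate 1 (0.34), Treg replicate 3 (0.51) or Treg replicate 4 (0.49). Pgk1, which makes ATP in lower glycolysis, and Pkm, which encodes pyruvate kinase, were called in no comparison. The largest difference was 0.25 ± 0.11 for Pgk1 and -0.24 ± 0.24 for Pkm.

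Pyruvate is reduced to lactate or carried into mitochondria. Ldha, the lactate dehydrogenase subunit that favours lactate, had nearly the same level in all groups, at 11.74 ± 0.09 (SD) over 5 Treg arrays, 11.74 ± 0.06 over 3 TN arrays and 11.72 ± 0.10 over 3 GFPKO arrays, and its differences lay between -0.03 and 0.02 with SE of 0.11 to 0.12. Ldhb, the subunit that favours the return of lactate to pyruvate, read 8.35, 8.46 and 8.49 in TN, 9.45, 9.33, 9.26, 9.45 and 9.56 in Treg, and 8.89, 9.27 and 9.43 in GFPKO. Every Treg and GFPKO array lay above every TN array. The log2 difference was 0.98 ± 0.13 for Treg minus TN, or 1.97-fold (limma adjusted p = 0.0001), and 0.76 ± 0.15 for GFPKO minus TN (adjusted p = 0.0049), with 0.21 ± 0.13 for Treg minus GFPKO (not called). All 4 Ldhb probe sets were called for Treg minus TN, at 0.60 to 0.98. For GFPKO minus TN the other Ldhb probe sets gave 0.28 to 0.39 and were not called, and their mean with the brightest gave 0.44, also not called.

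The lactate transporters Slc16a1 and Slc16a3 were called in no comparison. Slc16a3 lay at background in every group, at 2.71 to 3.16, so its level was not resolved. It was nevertheless called for Treg minus TN with array weights (0.53), with the actin covariate (0.52) and without Treg replicate 1 (0.55). Array weights also called it for Treg minus GFPKO (0.43). Slc16a1 varied within groups, from 8.19 to 8.91 in Treg and from 7.88 to 8.66 in GFPKO.

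**Figure D3:**
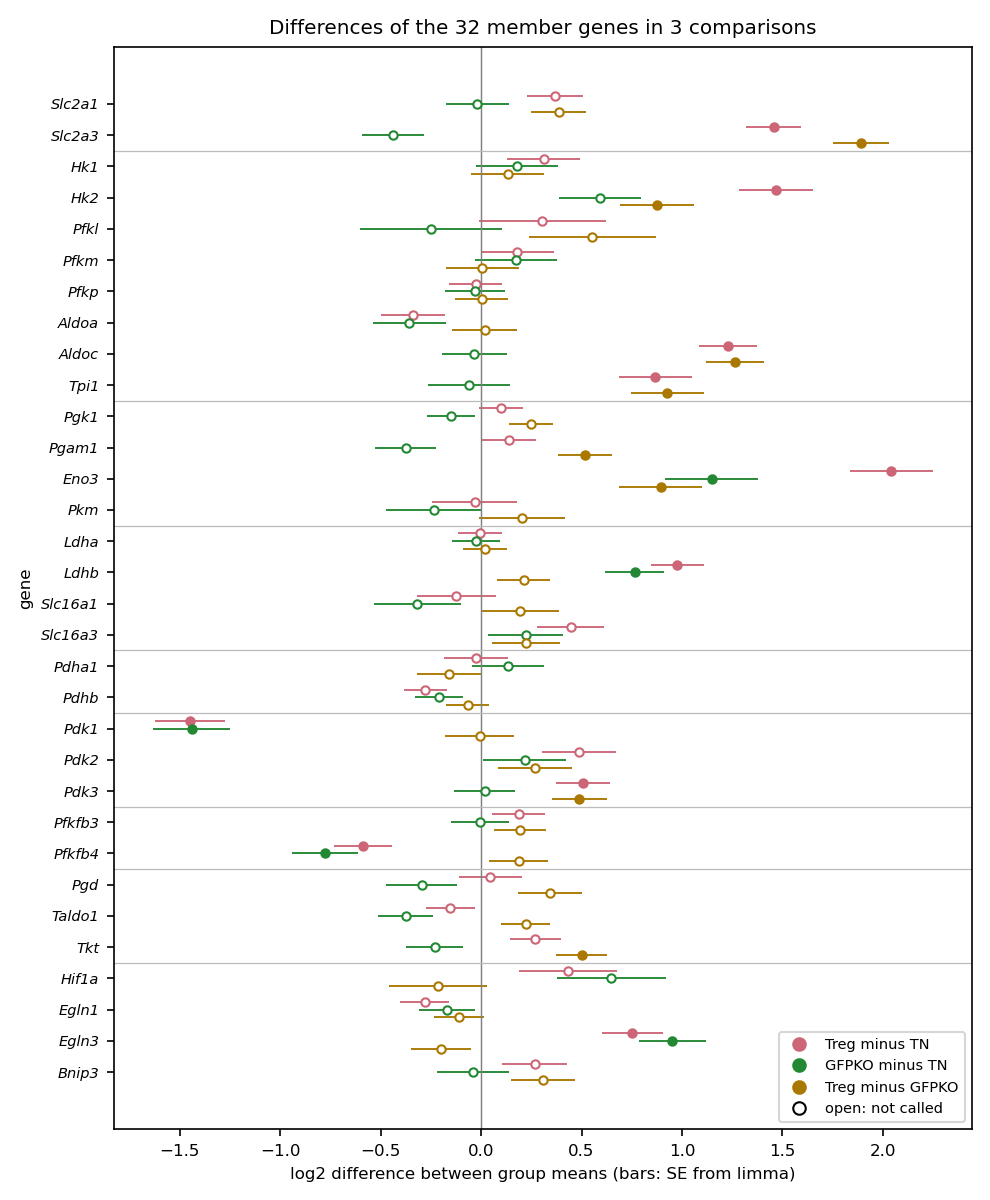
Log2 differences between group means with SE from limma for the 32 genes, in 3 comparisons, filled where called at an adjusted p under 0.05. The largest rise is Eno3 for Treg minus TN (2.04) and the largest fall is Pdk1 for Treg minus TN (-1.45), with nearly the same value for GFPKO minus TN (-1.44).

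Pyruvate dehydrogenase feeds pyruvate to the citric acid cycle, and its kinases switch it off. Pdk1, a kinase gene known as a hypoxia target, read 10.76, 10.50 and 10.52 in TN, 9.69, 9.14, 9.14, 8.97 and 8.79 in Treg, and 9.19, 8.97 and 9.30 in GFPKO. Each Treg and GFPKO array lay below each TN array, and Treg and GFPKO overlapped. The log2 difference was -1.45 ± 0.17 for Treg minus TN, a 2.73-fold lower level (limma adjusted p = 2.7e-05), and -1.44 ± 0.19 for GFPKO minus TN (adjusted p = 0.00019). Treg minus GFPKO was -0.01 ± 0.17 (adjusted p = 0.99). All 4 Pdk1 probe sets were called lower in both comparisons with TN, at -1.45 to -2.08 for Treg and -0.98 to -1.46 for GFPKO. The one with a mean of 5.07 was also called lower in Treg than in GFPKO (-1.10), where the other Pdk1 probe sets gave -0.01 to -0.37 and were not called.

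Pdk3, an X-linked kinase gene, went the other way in Treg, with 8.04 ± 0.05 in Treg (SD, n = 5) against 7.54 ± 0.18 in TN and 7.55 ± 0.29 in GFPKO (n = 3 each). Its arrays read 7.73, 7.48 and 7.39 in TN, 8.06, 8.01, 8.11, 8.00 and 8.03 in Treg, and 7.35, 7.89 and 7.42 in GFPKO. All Treg arrays lay above the rest. The difference was 0.51 ± 0.14 for Treg minus TN (limma adjusted p = 0.025) and 0.49 ± 0.14 for Treg minus GFPKO (adjusted p = 0.035). After centring these were 0.36 and 0.32, neither called. The first call was also lost without TN replicate 2 (0.48), TN replicate 3 (0.43) or Treg replicate 3 (0.49). The second was also lost with the actin covariate (0.53), with array weights (0.20) and in a fit of Treg and GFPKO alone (0.49). It was lost on leaving out any of 8 arrays (0.39 to 0.50): TN replicate 2, each Treg replicate, or GFPKO replicates 1 and 3 each.

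Pdk2 was near background and not called, with 3.94 ± 0.18 in TN, 4.42 ± 0.32 in Treg and 4.15 ± 0.30 in GFPKO, except that it was called higher in Treg than in TN without Treg replicate 3 (0.61). The enzyme's own subunits Pdha1 and Pdhb were called in no comparison. The Treg minus TN difference of Pdhb, -0.28 ± 0.11, came from groups that did not overlap and was called after centring (-0.42) and with array weights (-0.27). The other X-linked genes, Pgk1 and Pdha1, differed between GFPKO and TN by -0.15 ± 0.12 and 0.13 ± 0.18, not called.

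Pfkfb3 and Pfkfb4 set the level of fructose 2,6-bisphosphate, the activator of phosphofructokinase. Pfkfb4 read 5.95, 6.37 and 6.08 in TN, 5.41, 5.40, 5.70, 5.58 and 5.64 in Treg, and 5.04, 5.45 and 5.59 in GFPKO. Both groups lay below TN without overlap. The log2 difference was -0.59 ± 0.15 for Treg minus TN (limma adjusted p = 0.016) and -0.78 ± 0.16 for GFPKO minus TN (adjusted p = 0.0093). Without TN replicate 2, the highest array, they were -0.47 and -0.66 and neither was called, and the second was not called with the actin covariate (-0.66) or when GFPKO and TN were fitted alone (-0.78). Pfkfb3 was not called, with means of 6.92 in TN, 7.11 in Treg and 6.92 in GFPKO.

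The pentose phosphate genes Pgd, Taldo1 and Tkt gave 1 call. Tkt, the transketolase that links this pathway back to glycolysis, averaged 12.07 ± 0.12 in Treg (SD, n = 5) against 11.80 ± 0.06 in TN and 11.57 ± 0.23 in GFPKO (n = 3 each). Its arrays read 11.86, 11.78 and 11.75 in TN, 12.03, 11.97, 11.95, 12.19 and 12.21 in Treg, and 11.34, 11.55 and 11.81 in GFPKO. Treg lay above both other groups, and TN and GFPKO overlapped. In its brightest probe set only Treg minus GFPKO was called (0.50 ± 0.13, limma adjusted p = 0.021). The other Tkt probe sets gave 0.61 and 0.26 for that comparison, not called, and the dimmest was called for Treg minus TN (0.46). The call of the brightest probe set for Treg minus GFPKO was lost after centring (0.33) and with the actin covariate (0.40). It was also lost without Treg replicate 4 (0.47), Treg replicate 5 (0.47), GFPKO replicate 1 (0.39) or GFPKO replicate 2 (0.49). Pgd, which yields NADPH, and Taldo1, the transaldolase, were lowest on average in GFPKO, by -0.30 ± 0.18 and -0.38 ± 0.14 against TN, and not called. Without GFPKO replicate 3 Taldo1 was called lower in GFPKO than in TN (-0.50) and Pgd higher in Treg than in GFPKO (0.54), and both were called with array weights (-0.40 and 0.33).

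Hif1a, the oxygen-regulated transcription factor, read 10.01, 9.87 and 9.75 in TN, 10.76, 10.53, 10.58, 9.93 and 9.73 in Treg, and 11.07, 10.46 and 10.04 in GFPKO. Treg spanned the TN range and values well above it, and the GFPKO arrays lay above TN. The differences of 0.43 ± 0.24 for Treg minus TN and 0.65 ± 0.27 for GFPKO minus TN were not called by limma. With array weights the second was 0.58 and called. Egln3, a prolyl hydroxylase that marks Hif1a for degradation and is itself known as a hypoxia target, read 4.98, 5.09 and 4.66 in TN, 5.66, 5.59, 5.52, 5.80 and 5.74 in Treg, and 5.59, 5.78 and 6.21 in GFPKO. All arrays of Treg and GFPKO lay above TN. The log2 difference was 0.75 ± 0.15 for Treg minus TN (adjusted p = 0.0031) and 0.95 ± 0.17 for GFPKO minus TN (adjusted p = 0.0023). Another Egln3 probe set gave 0.41 and 0.47 and was not called, with p adjusted over all probe sets. Egln1, the main prolyl hydroxylase, and Bnip3, a mitophagy gene induced by hypoxia, were not called, though Egln1 was called lower in Treg than in TN after centring (-0.42).

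**Figure D4:**
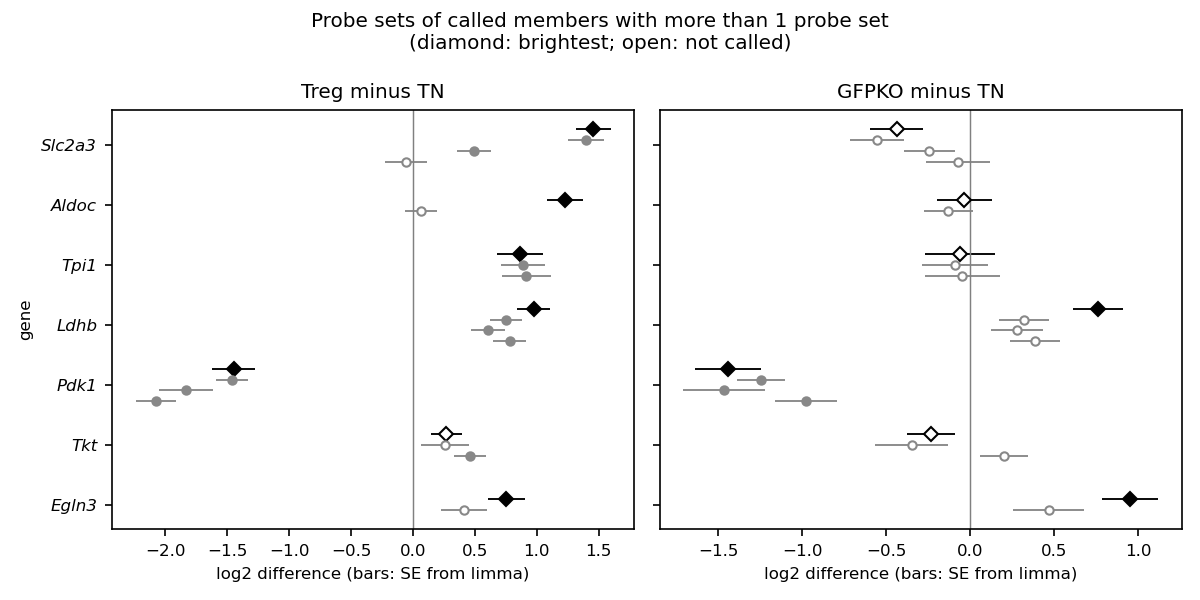
Log2 differences with SE from limma of every probe set of the 7 called genes with more than 1 probe set, for Treg minus TN (left) and GFPKO minus TN (right), filled where called. The 4 Pdk1 probe sets are all called lower on both sides, and the 4 Ldhb probe sets are all called higher on the left while only the brightest is called on the right.

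The 12 called genes fell into overlapping sets. In 6 genes (Slc2a3, Hk2, Aldoc, Tpi1, Eno3 and Pdk3) Treg was called higher than both other groups. In 5 genes both Treg and GFPKO were called against TN in the same direction, with Eno3, Ldhb and Egln3 higher and Pdk1 and Pfkfb4 lower. Eno3 belongs to both sets. Pgam1 and Tkt were called only for Treg against GFPKO. The groups did not overlap for 53.1% of the 32 genes between Treg and TN, where 19.5% of all genes did not overlap. The same shares were 31.2% against 18% for GFPKO and TN, and 34.4% against 14.4% for Treg and GFPKO. The shares of all genes include many dim ones, and none was taken over the brighter genes alone.

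The naive T cell markers were lower in Treg than in TN in 6 of 6, lower in GFPKO than in TN in 4 and lower in Treg than in GFPKO in 5, with summed log2 levels of 14.15 to 14.19 in TN, 12.58 to 12.80 in Treg and 13.41 to 13.56 in GFPKO and none at background. Cell cycle markers differed too. Of 15 measured, 11 were higher in Treg than in TN and 7 higher in Treg than in GFPKO, and 3 were higher in GFPKO than in TN. The log2 of their summed level was 11.93 to 12.02 in TN, 12.25 to 12.38 in Treg and 11.91 to 12.22 in GFPKO, with Tyms and Bub1 at background in all groups. Against TN, Treg had 6 lower and 1 higher of 14 markers of myeloid and dendritic cells, and GFPKO had 6 lower. Their summed level was 9.05 to 9.63 in TN, 8.25 to 8.95 in Treg and 8.03 to 8.68 in GFPKO, with Itgam, Cd14, S100a8 and S100a9 at background in all groups. Of 6 NK cell markers, 2 were lower and 1 higher in Treg against TN and 3 were lower in GFPKO, while 3 were higher and 1 lower in Treg against GFPKO, with summed levels of 9.71 to 9.97 in TN, 8.61 to 9.04 in Treg and 7.07 to 7.86 in GFPKO and Ncr1 at background throughout. Of 7 B cell markers, 1 was higher and 1 lower in Treg against TN, 1 higher and 2 lower in GFPKO against TN and 2 higher in Treg against GFPKO, with summed levels of 7.16 to 7.32 in TN, 8.22 to 8.54 in Treg and 6.95 to 7.42 in GFPKO and Cd79a, Ms4a1, Blk and Ebf1 at background in all groups. Of 2 CD8 T cell markers, neither at background in any group, 1 was lower in GFPKO than in TN. Their summed level was 7.63 to 7.88 in TN, 7.36 to 7.66 in Treg and 7.14 to 7.57 in GFPKO. The part of these cells or of cycling in the values above was not tested. None of 7 erythroid and platelet markers was called in any comparison, and Hba-a1, Alas2, Slc4a1, Pf4 and Ppbp were at background in all groups.

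Further genes of the pathways were read from lists of related genes. Of 37 other glycolysis and pentose phosphate genes, 2 were higher and 1 lower in Treg than in TN, 1 was higher in GFPKO than in TN, and 3 were higher and 1 lower in Treg than in GFPKO. These shares were near or below the 9.97%, 5.66% and 9.43% of all genes. Galm, which interconverts the forms of glucose, rose from 6.39 in TN to 8.06 in Treg (1.67 ± 0.15, limma adjusted p = 1.6e-06) and to 7.58 in GFPKO (1.19 ± 0.17, adjusted p = 0.00037). Tktl1, a transketolase-like gene, was at background in TN (3.82) and GFPKO (3.72) and at 5.00 in Treg. The differences as read were 1.18 against TN (limma adjusted p = 0.00067) and 1.28 against GFPKO (adjusted p = 0.00064). Lower bounds were set by giving each TN or GFPKO array the background level or its own value, whichever was higher. By these bounds, which were not tested, Treg was at least 1.86-fold higher than TN and at least 2.0-fold higher than GFPKO. Gpd2, the mitochondrial glycerol phosphate dehydrogenase that passes cytosolic electrons to the respiratory chain, was lower in Treg (6.50) than in TN (7.56) or GFPKO (7.89). G6pc3 and Pgm1 were higher in Treg than in GFPKO, by 0.60 and 0.65. Neither was called after centring (0.43 and 0.48), with the actin covariate (both 0.39), without GFPKO replicate 1 (0.51 and 0.53) or without GFPKO replicate 2 (both 0.53), and Pgm1 was not called over its mean of probe sets (0.11).

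Among 32 genes of pyruvate entry and the citric acid cycle, Treg had 2 lower than TN and GFPKO had 1, with no gene called higher against TN. Of all genes, 9.97% were called for Treg minus TN (3.42% lower) and 5.66% for GFPKO minus TN (3.02% lower). Idh2, the mitochondrial NADP-dependent isocitrate dehydrogenase, fell from 8.39 in TN to 7.33 in Treg (-1.06 ± 0.16, limma adjusted p = 0.00023) and 7.57 in GFPKO (-0.82 ± 0.18, adjusted p = 0.0099). The malic enzyme gene Me2 was lower in Treg than in TN by a log2 difference of -0.64. Its Treg minus GFPKO difference of -0.29 was not called, except after centring (-0.45) and with array weights (-0.32). In Treg 4 genes were higher than in GFPKO, Sdhd (0.59), Mpc1 (0.48), Sdhb (0.41) and Mdh1 (0.42). Of all genes, 9.43% were called in that comparison and 6.88% were called higher. With the actin covariate none of the 4 was called, at 0.46, 0.46, 0.30 and 0.46 in that order, and after centring only Sdhd was. The Mdh1 call was lost on leaving out any of the 11 arrays (0.35 to 0.47), and the Sdhb call on leaving out any array but Treg replicate 1 and GFPKO replicate 3 (0.31 to 0.44). Mpc1 was not called without GFPKO replicate 1 (0.48), GFPKO replicate 2 (0.52), Treg replicate 3 (0.48) or Treg replicate 5 (0.46). The Idh2 call for GFPKO minus TN was lost with the actin covariate (-0.55), over the mean of its probe sets (-0.48), in a fit of those groups alone (-0.82) and without TN replicate 1 (-0.76).

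Of 23 further hypoxia response genes, 2 were higher and 2 lower in Treg than in TN, 3 were lower in GFPKO than in TN, and 2 were higher and 1 lower in Treg than in GFPKO. Over all genes, 9.97%, 5.66% and 9.43% were called in these comparisons, in the same order. Epas1, which encodes the HIF-2 alpha subunit, showed the widest difference, with 6.83 in TN, 4.21 in Treg and 5.40 in GFPKO (-2.62 ± 0.16 for Treg minus TN, limma adjusted p = 2.6e-08). P4ha1, a collagen prolyl hydroxylase, was lower in GFPKO than in TN (-0.63) and higher in Treg than in GFPKO (1.04). The P4ha1 difference of 0.41 between Treg and TN was not called after centring (0.27), with a variance trend (0.41), or without any 1 of the TN arrays or of Treg replicates 2 to 5 (0.38 to 0.43). Ankrd37 was lower in GFPKO than in TN (-0.64) and higher in Treg than in GFPKO (0.83). The first of these was not called with the actin covariate (-0.49), in a fit of those groups alone (-0.64), or without GFPKO replicate 1 (-0.45) or any 1 of the TN arrays (-0.61 to -0.68). Ddit4, an inhibitor of mTOR signalling, was higher in Treg than in TN by 0.50, a call lost after centring (0.35), with the actin covariate (0.48) and without TN replicates 1 or 3 or Treg replicates 1 to 4 (0.40 to 0.52). P4ha2 was called lower in Treg, but its means of 2.97 and 2.39 both lay at background.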

How the data were processed

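Each of 11 Affymetrix arrays gave 1 deposited log2 value per probe set, made by the authors with RMA, a method that normalises arrays together and summarises probes, per the submitters' processing notes. No RMA version or genome build is given in the sources used here, and the log2 scale was read from the values (1.54 to 14.65). No depth or detection call was used, and the number of arrays limits the precision. Of 45101 probe sets, 34945 had 1 gene symbol and gave 18193 genes, each taken from the probe set with the highest mean. No dim gene was left out. Group means were estimated in 1 limma model (version 3.58.1, R 4.3.3) of the 11 arrays, with two-sided tests, with p adjusted by Benjamini-Hochberg over all genes. Scripts were tested on simulated data.

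The genes and lists were chosen with earlier results of these data known. By rule all 32 measured genes are named, with up to 4 called genes per related list and comparison. Alternatives changed the scaling, filter, probe set rule, fitted groups, array weights, variance trend, actin covariate and replicate block, or left out each array in turn.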

Additional observations from a re-analysis of the deposited data

Results flagged for a closer look

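Of the 32 genes, 1 had a Treg array far from the other 4 by Dixon's test. Pfkfb3 read 7.25 in Treg replicate 1, with 7.09 as the nearest value and a gap of 0.83 of the group's range. Chance flags about 1 in 20 groups.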

How the results depend on the processing

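Over 19 alternatives, 13 of 23 called combinations of gene and comparison were called each time and 10 were lost at least once. Of 73 uncalled combinations 16 were called at least once, and no called direction reversed in any alternative. For Treg minus TN, the 2 lower genes became 5 after centring and 4 with array weights, while 8 higher genes became 7 after centring and 10 with array weights. Centring called 2078 of all genes (11.4%) and array weights 3223 (17.7%), against 1813. For GFPKO minus TN, 1 gene was lower in a fit of GFPKO and TN alone and with the actin covariate, and with array weights 5 were higher and 5 lower. All genes called numbered 562, 570 and 5051 in these, against 1029. The shares called were 12.5%, 12.5% and 31.2% of the 32 genes, against 3.09%, 3.13% and 27.8% of all genes. For Treg minus GFPKO, the 8 higher genes became 5 after centring and 2 with the actin covariate. All genes called numbered 1574 after centring, 811 with the actin covariate and 6756 with array weights, against 1716. With array weights 10 of the 32 genes were called higher (31.2%), a smaller share than the 37.1% of all genes. The weights ranged from 0.25 for GFPKO replicate 1 to 5.11 for GFPKO replicate 2. Centring moved the higher share of all called genes from 65.6% to 43.5% for Treg minus TN and from 73% to 42.9% for Treg minus GFPKO. The causes were not tested.

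Leaving out 1 array gave 7 to 9 higher and 1 to 2 lower genes for Treg minus TN (1360 to 2398 of all genes), 3 to 4 higher and 1 to 4 lower for GFPKO minus TN (644 to 1868), and 4 to 10 higher and 0 lower for Treg minus GFPKO (1134 to 3421). The lower counts of 1 came without TN replicate 2. The 4 lower genes for GFPKO minus TN and the 1868 came without GFPKO replicate 3, and the 644 without TN replicate 1. For Treg minus GFPKO there were 4 higher genes without GFPKO replicate 1 (1134 of all genes) and 5 without Treg replicate 4 (1274). Without GFPKO replicate 3, 3421 of all genes were called.

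The labels used here do not say whether replicate numbers pair the samples. Deviations of same-numbered arrays correlated at -0.22 to 0.51, and 7 of 18 comparisons were highest with their own number. With so few arrays these values cannot settle the pairing. With the replicate block, Treg minus GFPKO had 4 higher genes and 1049 of all genes called. The calls of Pgam1 (0.49), Eno3 (0.74), Pdk3 (0.51) and Tkt (0.41) were lost there, as was that of Pdk3 for Treg minus TN (0.53), and Hif1a was called higher in Treg (0.75) and GFPKO (0.65) than in TN.

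The same alternatives were run for the 22 called related genes, a step chosen after seeing the data. Of their 36 called combinations, 18 were kept in each alternative, 18 were lost at least once and 0 reversed. Of the 18, P4ha1 for GFPKO minus TN was lost in the fit of those groups alone, and P4ha2 for Treg minus TN without TN replicate 3.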

Other observations

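A further list of 20 genes was drawn up here for regulators of growth and metabolism. Against TN, 2 were higher and 1 lower in Treg (9.97% of all genes were called). In GFPKO 2 were higher and 2 lower than in TN (5.66% of all genes). Against GFPKO, 2 were higher and 2 lower in Treg (9.43% of all genes). Irf4, a T cell receptor-induced transcription factor, read 6.03 in TN, 8.20 in Treg and 8.30 in GFPKO, and Myc read 8.36, 9.06 and 8.95 in the same order, each called higher in both against TN. The Myc call for GFPKO minus TN (0.59) was lost with the actin covariate (0.34), in a fit of those groups alone (0.59), and on leaving out any 1 of GFPKO replicates 1 and 2, the TN arrays or Treg replicates 2 to 4 (0.44 to 0.66). Nfe2l2, the regulator of antioxidant genes, was lower in Treg (7.48) than in TN (8.94) or GFPKO (8.66), with a log2 difference of -1.46 ± 0.14 against TN (limma adjusted p = 2e-06). Slc7a5, an amino acid transporter, was lower in GFPKO (7.71) than in TN (8.37) or Treg (8.35), and so was Max, the partner of Myc, at 6.96 against 7.70 and 7.51. The calls of Slc7a5 for GFPKO minus TN (-0.66) and Treg minus GFPKO (0.64), and of Max for Treg minus GFPKO (0.55), were lost with the actin covariate (-0.51, 0.53 and 0.60) and without GFPKO replicate 1 (-0.50, 0.48 and 0.38). The first was also lost without any 1 TN array (-0.63 to -0.70), and the last after centring (0.38) and without Treg replicate 4 (0.50). In fits of GFPKO and TN alone neither Slc7a5 nor Max (-0.73) was called. Nrf1 was lower in Treg than in GFPKO by a log2 difference of -0.51, a call lost with the actin covariate (-0.44) and without GFPKO replicate 1 (-0.43), GFPKO replicate 2 (-0.48) or Treg replicate 4 (-0.45).

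The GFPKO arrays varied most. In 25 of the 32 genes (78.1%) the widest SD was in GFPKO, as in 58.3% of all genes. The median SD of the 32 genes was 0.30 in GFPKO, 0.14 in TN and 0.16 in Treg, and that of all genes was 0.24, 0.15 and 0.17 in the same order. GFPKO replicate 1 was the lowest of its group in 26 of the 32 genes (81.2%), against 48.5% of all genes, and was the highest in 3.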
